A study of Mus musculus with 6 samples.

Results

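Cytochrome P450 enzymes (Cyp genes) and flavin-containing monooxygenases (Fmo genes) were followed in mouse ear skin with allergic contact dermatitis. The genes were chosen by symbol: a symbol starting with Cyp and a digit, or with Fmo and a digit from 1, without Cyp51 and Cyp4f39. This took 85 of the 19309 genes of the deposited table, 79 Cyp and 6 Fmo genes. Of these, 45 had a mean of at least 10 estimated counts in the vehicle ears or in the DNFB ears and are described below, 41 Cyp and 4 Fmo genes. The other 40 lay below that level in both groups.

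The animals were 3 C57BL/6 mice of 6 to 8 weeks, and each gave both a DNFB ear and a vehicle ear, so each group held 3 libraries. All 3 mice had first been sensitised with DNFB (2,4-dinitrofluorobenzene, a hapten that couples to skin proteins), 25 µL at 0.5%, so the vehicle ears come from sensitised animals too. From day 6, and for 6 days, left ears were given 10 µL of DNFB at 0.25% and right ears the same volume of its solvent, 80% acetone with 20% olive oil. The comparison asks how transcripts of the skin's oxidising enzymes differ under DNFB challenge. Ears are numbered by animal, so that DNFB ear 3 and vehicle ear 3 belong to mouse 3.

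P450 enzymes are haem proteins of the endoplasmic reticulum or the mitochondria that insert an oxygen atom into a substrate, with electrons passed on by cytochrome P450 reductase or by ferredoxin. Families 1 to 3 are known mainly for oxidising foreign compounds and unsaturated fatty acids, family 4 for hydroxylating the ends of fatty acids and eicosanoids, and the others for steps in sterol, bile acid, steroid hormone, vitamin D and retinoic acid metabolism. Flavin-containing monooxygenases oxidise nitrogen and sulfur atoms of drugs and amines without haem. In skin, keratinocytes, sebaceous glands and fibroblasts hold such enzymes, and the set of members differs from that of the liver.

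The 6 libraries held 19556754 to 20336945 estimated counts. A principal component analysis over all genes (87.1% of the variance on the first axis) placed vehicle ears between −66.8 and −59.0 and DNFB ears 1, 2 and 3 at 79.7, 73.5 and 39.2, so DNFB ear 3 lay nearest to the vehicle ears. Counts of 22 of the 45 described members carried decimals in a vehicle library and of 30 in any library. The share of whole counts over all genes was 66.5% to 66.7% in vehicle ears and 64.8%, 42.6% and 40.5% in DNFB ears 1, 2 and 3. Decimals may come from reads divided between similar genes, which was not tested, and the split between near-identical family members is uncertain. Skin markers were present: basal keratinocyte markers summed to 5699 to 8773 CPM (counts scaled to a common library total) in all 6 ears, and 0 of 5 passed the test. The 5 liver markers together summed to 10.4 CPM in DNFB ear 2 and to 1.43 to 3.37 CPM in the other ears. In this bulk tissue, fewer cells of a type and less RNA per cell cannot be told apart.

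In DNFB ears many genes of the drug- and lipid-oxidising families were lower and few members were higher. Of the 42 described members that could be tested, 19 were lower in DNFB than in vehicle ears, 7 were higher and 16 did not pass (edgeR quasi-likelihood test, Benjamini-Hochberg adjusted p under 0.05 over all 15317 genes tested). Over all genes 25.4% were lower, 25.9% higher and 51.3% either. Among the 42, 16 passed and were lower by at least 2-fold, against 10.6% of all genes tested. Those that passed and were higher by at least 2-fold were 5 of the 42, Cyp8b1 and Cyp27b1 among them. That share was near the 13.0% of all genes tested. Cyp8b1, Cyp27b1 and Cyp24a1 reached 10 counts in the DNFB ears only and so had to be higher there. Cyp2u1 and Fmo4 reached 10 counts in the vehicle ears only and so had to be lower in DNFB ears. Of the 40 members that reached it in both groups, 5 were higher, 19 lower and 16 did not pass, with a median log2 fold change of −0.92 against −0.02 over all genes. Of these 40, all DNFB libraries lay below all vehicle libraries in 22 (32.0% of all genes) and above them in 6 (30.6% of all genes), and the groups overlapped in 12.

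**Figure D1:**
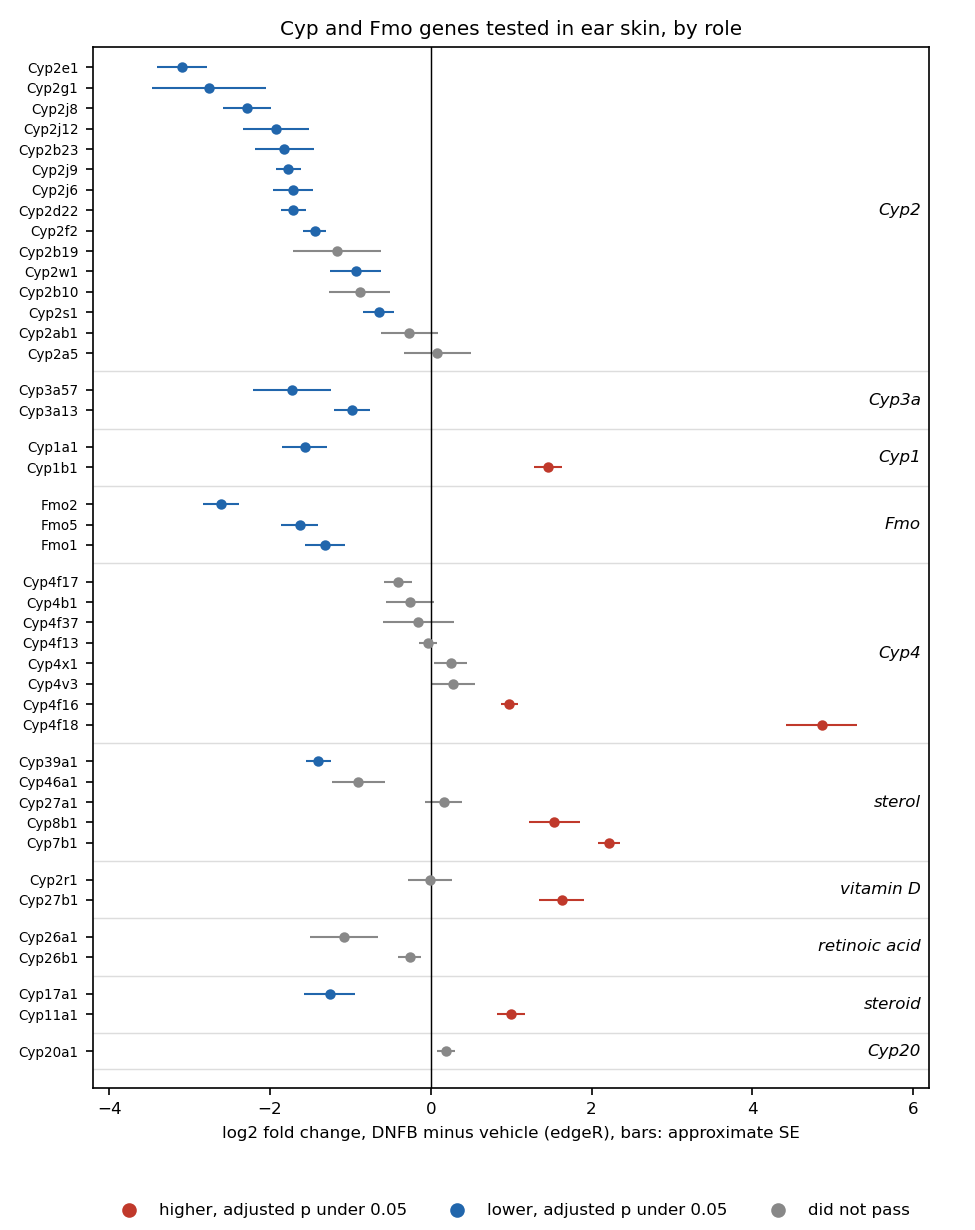
Log2 fold change, DNFB minus vehicle ears, of the tested members, grouped by role, with an approximate standard error as the bar (n = 3 ears per group). The 19 lower and 7 higher members are coloured, and the Cyp2, Cyp3a and Fmo members that passed all lie below 0.

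Family 2 and the Fmo genes made up most of the lower members. Of 17 described Cyp2 members, 16 were tested, and 11 were lower, 0 higher and 5 did not pass, with a median log2 fold change of −1.58. This count includes Cyp2r1, described with the vitamin D enzymes. Both tested Cyp3a members were lower (median −1.35), as were all 3 tested Fmo genes (median −1.63). In the same DNFB ears the markers of several resident cell types were lower: 5 of 6 suprabasal keratinocyte markers (11277 to 14837 CPM summed in vehicle, 2787 to 5965 in DNFB ears), 7 of 8 tested sebocyte markers (1449 to 1767 and 447 to 832 CPM), 10 of 10 adipocyte markers (2126 to 2502 and 819 to 931 CPM) and 7 of 7 skeletal muscle markers (2413 to 3673 and 1063 to 1640 CPM). Over all genes 25.4% were lower. Of 3 Langerhans cell markers 2 were lower and 1 higher (136 to 157 CPM summed in vehicle, 85.2 to 124 in DNFB ears). Fibroblast and endothelial markers did not follow: of 6 fibroblast markers 2 were higher, 2 lower and 2 did not pass (9236 to 11141 CPM summed in the 6 ears). Of 4 endothelial markers 2 were higher, 0 lower and 2 did not pass. The part of any of these cell types in the lower P450 and Fmo levels was not tested.

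Cyp2e1, the ethanol- and fatty acid-oxidising P450 best known from liver, measured 29.6, 18.3 and 26.7 CPM in the vehicle ears of mice 1, 2 and 3 and 2.13, 2.30 and 4.30 CPM in their DNFB ears. The groups did not overlap, and the gene was 8.53-fold lower (log2 −3.09 ± 0.31 SE, edgeR adjusted p = 0.000409). Fmo2, the flavin monooxygenase known as the lung form, gave 116, 106 and 99.8 CPM in vehicle ears and 15.6, 13.0 and 24.0 CPM in DNFB ears. Every DNFB ear was thus far below every vehicle ear, and the gene was 6.12-fold lower (−2.61 ± 0.23, adjusted p = 0.000232). Cyp2g1, known from olfactory mucosa, ran from 107 to 54.7 to 16.6 CPM across the vehicle ears of mice 1, 2 and 3, against 9.27, 13.3 and 3.81 CPM in the DNFB ears. Of the tested members it had the widest relative spread between vehicle ears. Its log2 fold change of −2.76 ± 0.71 (adjusted p = 0.0151) became −2.01 without vehicle ear 1, at an adjusted p of 0.05005, and missed the threshold.

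The 4 described genes of the Cyp2j subfamily, whose enzymes are known for making epoxides of arachidonic acid, were all lower. They belong to a run of 7 members in the RefSeq gene order, a run being members with at most 10 steps in the order of protein-coding genes from one to the next. Cyp2j6 measured 117, 131 and 97.5 CPM in vehicle and 26.7, 29.2 and 49.2 CPM in DNFB ears (−1.72 ± 0.25, adjusted p = 0.00148). Cyp2j9 measured 25.0, 26.5 and 22.5 CPM against 6.19, 6.80 and 8.65 CPM (−1.77 ± 0.16, adjusted p = 0.000250). Neither pair of groups overlapped, and in both genes DNFB ear 3 was the highest of the DNFB ears. Cyp2j8 gave 16.7, 18.2 and 16.2 CPM in vehicle ears and 2.58, 2.50 and 5.44 CPM in DNFB ears (−2.28 ± 0.30, adjusted p = 0.00103). Cyp2j12 gave 28.1, 31.1 and 24.0 CPM against 3.47, 5.95 and 12.5 CPM (−1.93 ± 0.41, adjusted p = 0.00720), and −2.56 without DNFB ear 3. These genes are similar in sequence, so reads may have been divided between them.

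Epoxides made by such enzymes are opened by epoxide hydrolases. Of 4 tested hydrolases 2 were lower, 0 higher and 2 did not pass (median −0.96), beside 25.4% lower and 25.9% higher over all genes. Ephx2, the soluble hydrolase that acts on fatty acid epoxides, averaged 28.0 ± 3.61 CPM (SD, n = 3) in vehicle and 11.1 ± 1.02 CPM in DNFB ears (log2 −1.33 ± 0.14 SE, adjusted p = 0.000443). Ephx1, the microsomal hydrolase of foreign epoxides, averaged 156 ± 8.48 and 62.6 ± 16.3 CPM (−1.32 ± 0.18, adjusted p = 0.00120). The other pair, Ephx3 and Ephx4, did not pass, Ephx3 at −0.60 ± 0.27 (adjusted p = 0.107), though at −0.90 (0.00798) without DNFB ear 3.

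A second run, of 12 members, holds the Cyp2s1, Cyp2b, Cyp2g1, Cyp2a and Cyp2f2 genes, of which 7 were described, 4 of them lower and 0 higher. Cyp2f2, known in mouse for activating naphthalene in lung, measured 196, 166 and 134 CPM in vehicle ears and 58.0, 61.2 and 62.8 CPM in DNFB ears. The DNFB ears lay close together at a level well under every vehicle ear (−1.45 ± 0.15, adjusted p = 0.000412). Cyp2b23 gave 15.1, 20.9 and 9.90 CPM against 2.43, 5.20 and 5.34 CPM (−1.82 ± 0.37, adjusted p = 0.00590). Cyp2s1, an extrahepatic P450 of epithelia, was 1.57-fold lower (−0.65 ± 0.19, adjusted p = 0.0278), but at 0.0611 with animals blocked, and it missed the threshold without vehicle ear 1, vehicle ear 3 or DNFB ear 1 (adjusted p 0.0912, 0.0897 and 0.0764).

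Both abundant Cyp2b genes turned on 1 ear. Cyp2b19, known in mouse as the keratinocyte epoxygenase of the outer epidermis, measured 99.6, 92.1 and 83.6 CPM in vehicle ears and 14.8, 26.9 and 80.9 CPM in DNFB ears. Mice 1 and 2 showed a deep drop and mouse 3 almost none, and the difference did not pass (−1.17 ± 0.55, adjusted p = 0.113). It passed with limma-voom (−1.52, 0.0459) and without DNFB ear 3 (−2.14, 0.000120). Cyp2b10, known in liver as the target of the receptor Nr1i3, measured 94.3, 103 and 80.3 CPM against 25.3, 43.1 and 82.0 CPM, the same shape (−0.88 ± 0.38, adjusted p = 0.0894, 0.0375 with DESeq2, and −1.43 with 0.000798 without that ear). The receptors Nr1i3 and Nr1i2 themselves averaged 0.0671 and 0 CPM in vehicle ears and were not tested. The suprabasal keratinocyte markers summed to 2787, 4801 and 5965 CPM in DNFB ears 1, 2 and 3, in the same order as Cyp2b19 and Cyp2b10. Sebocyte, basal keratinocyte and Langerhans cell marker sums had that order too, while adipocyte and skeletal muscle sums did not. Of all lower genes, 66.4% were highest in ear 3 among the DNFB ears. The part of any cell type in this was not tested.

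The remaining family 2 and 3 members were mostly lower as well. Cyp2d22, a gene of the debrisoquine-oxidising subfamily, measured 19.9, 19.9 and 18.8 CPM in vehicle and 5.95, 4.95 and 7.02 CPM in DNFB ears, with no overlap (−1.71 ± 0.15, adjusted p = 0.000256). Cyp3a57 gave 29.2, 36.7 and 27.5 CPM against 3.86, 6.85 and 17.5 CPM (−1.73 ± 0.49, adjusted p = 0.0218). That call rested on all the vehicle ears and 1 DNFB ear: without vehicle ear 1, 2 or 3 or DNFB ear 2 the adjusted p was 0.0544, 0.0742, 0.0503 or 0.0766, while without DNFB ear 3 the log2 fold change was −2.54. Cyp3a13, a drug-metabolising Cyp3a gene outside the main Cyp3a cluster, was 1.97-fold lower (−0.98 ± 0.22, adjusted p = 0.00962). Cyp2w1 was 1.91-fold lower (−0.93 ± 0.31, adjusted p = 0.0411), with overlapping groups, and lost its call with animals blocked (0.0833) and without vehicle ear 1 (0.118), vehicle ear 3 (0.137), DNFB ear 1 (0.105) or DNFB ear 3 (0.0626). Cyp2ab1 (−0.27 ± 0.36) and Cyp2a5 (0.08 ± 0.42) did not pass, at adjusted p of 0.550 and 0.885. Cyp2u1 averaged 0.693 ± 0.206 CPM in vehicle and 0.348 ± 0.173 CPM in DNFB ears and was removed by the filter on low counts (−0.99, adjusted p = 0.163 with no filter).

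Fmo5 and Fmo1 followed Fmo2. Fmo5 measured 52.9, 56.0 and 48.4 CPM in vehicle and 12.5, 14.7 and 23.6 CPM in DNFB ears (−1.63 ± 0.23, adjusted p = 0.00139). Fmo1, the main drug-oxidising form in many tissues, measured 85.8, 95.6 and 76.4 CPM against 24.9, 29.4 and 49.1 CPM (−1.32 ± 0.25, adjusted p = 0.00446). In both, the groups stayed apart and DNFB ear 3 kept the highest level. Fmo4, at 0.515 ± 0.0148 CPM in vehicle and 0.165 ± 0.114 CPM in DNFB ears, was removed by the filter on low counts. It reached 10 mean counts in the vehicle ears only, so its direction was fixed by that choice. With no filter it was at −1.60 (adjusted p = 0.0478), without DNFB ear 3 at −2.30 (0.00608) and without mouse 3 at −2.27 (0.0111), while DESeq2 gave 0.0953.

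**Figure D2:**
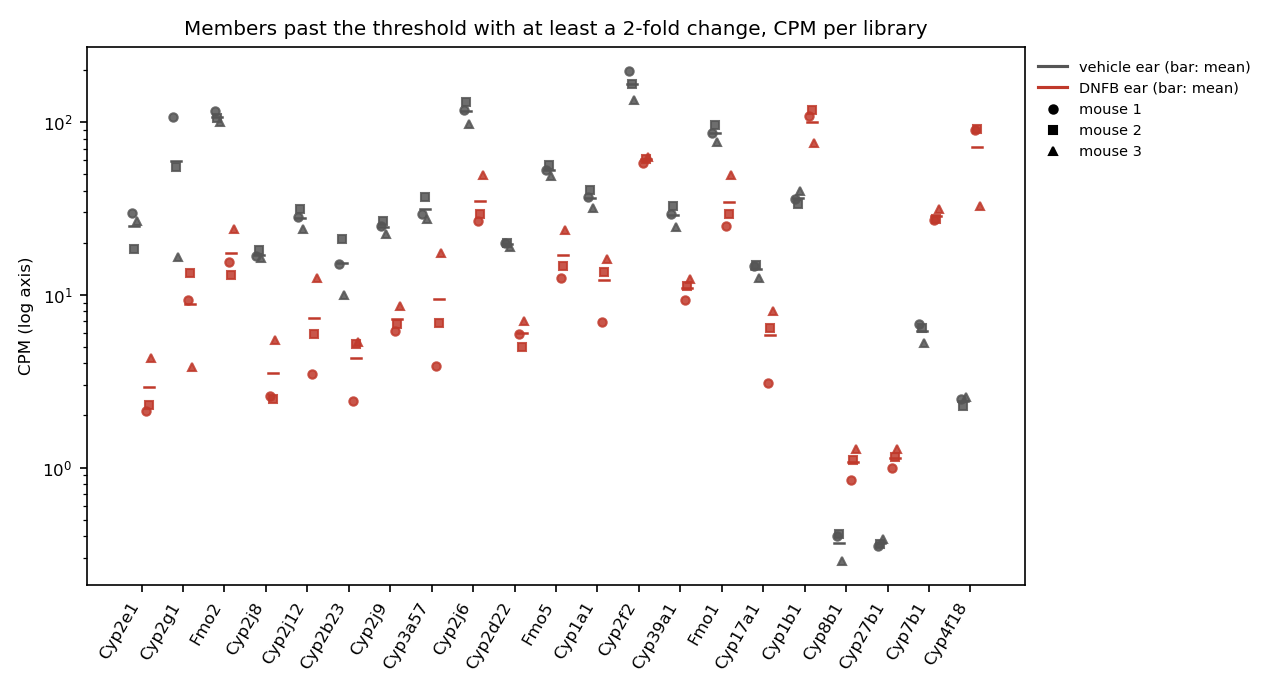
CPM in each ear on a log axis for the members past the threshold with at least a 2-fold change, vehicle and DNFB ears in separate colours, the marker shape giving the mouse and the short bar the mean of 3 ears. The groups do not overlap for any of them, Cyp2g1 coming nearest with 16.6 CPM in vehicle ear 3 and 13.3 CPM in DNFB ear 2.

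Family 1, the targets of the aryl hydrocarbon receptor, split. This receptor, opened by planar aromatic ligands, is known to bind the core GCGTG with its partner Arnt, and Cyp1a1 and Cyp1b1 are its textbook targets. Cyp1a1 measured 36.7, 40.2 and 31.6 CPM in vehicle ears and 6.99, 13.5 and 16.1 CPM in DNFB ears, and was 2.97-fold lower (−1.57 ± 0.28, adjusted p = 0.00372). Cyp1b1 went the other way, from 35.7, 33.7 and 40.1 CPM to 108, 117 and 75.7 CPM, 2.75-fold higher (1.46 ± 0.17, adjusted p = 0.000724). Neither gene's groups overlapped. The 250 bases before each start in RefSeq (build GRCm38.p6) are shown because the 2 genes moved apart, with the core in capitals; it lies on the gene's strand 54 to 50 bases before the start in Cyp1a1, and on the other strand, read as CACGC, 76 to 72 bases before it in Cyp1b1.
Cyp1a1, chr9:57697363-57697612, plus strand: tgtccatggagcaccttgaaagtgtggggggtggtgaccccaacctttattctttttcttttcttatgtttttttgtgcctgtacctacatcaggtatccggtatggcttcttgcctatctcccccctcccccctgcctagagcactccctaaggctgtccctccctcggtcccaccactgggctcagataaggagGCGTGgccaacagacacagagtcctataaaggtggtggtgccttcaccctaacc
Cyp1b1, chr17:79715062-79715311, minus strand: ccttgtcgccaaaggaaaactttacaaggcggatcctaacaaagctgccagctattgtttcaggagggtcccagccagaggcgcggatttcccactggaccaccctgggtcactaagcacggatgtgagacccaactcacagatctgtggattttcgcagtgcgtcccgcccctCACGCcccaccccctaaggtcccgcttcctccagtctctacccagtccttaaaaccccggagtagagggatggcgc
The core, searched on both strands, stands in 28.2% of the 32851 RefSeq windows of this length and in 11 of the 35 described members with an entry.

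Of 10 other genes of the receptor's pathway 3 were higher, 3 lower and 4 did not pass (median 0.40), near the 25.9% higher and 25.4% lower of all genes. Ugt1a7c, a glucuronosyltransferase whose locus shares exons with its relatives so that its reads are uncertain, averaged 23.8 ± 3.55 CPM in vehicle and 55.1 ± 16.7 CPM in DNFB ears (1.21 ± 0.24, adjusted p = 0.00527). Tiparp, an ADP-ribosyltransferase that curbs the receptor, averaged 39.8 ± 10.3 and 84.3 ± 11.5 CPM (1.08 ± 0.21, adjusted p = 0.00480). Aldh3a1, an aldehyde dehydrogenase of surface epithelia, was lower at 188 ± 10.8 and 87.2 ± 47.1 CPM (−1.11 ± 0.36, adjusted p = 0.0371), a call lost without any 1 of the 3 vehicle ears or without DNFB ear 2. The receptor Ahr itself did not pass (0.36 ± 0.21, adjusted p = 0.182, and 0.0379 without DNFB ear 1).

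Family 4 held the largest increase among the tested members. Of 8 tested members 2 were higher, 0 lower and 6 did not pass, with a median of 0.11. The share higher was near the 25.9% of all genes, of which 25.4% were lower. Cyp4f18, known in mouse neutrophils for hydroxylating the chemoattractant leukotriene B4, measured 2.50, 2.27 and 2.55 CPM in vehicle ears and 89.5, 91.3 and 32.7 CPM in DNFB ears. Vehicle ears lay close together and each DNFB ear was far above them, 29.1-fold on average (4.86 ± 0.44, adjusted p = 0.000274). All 5 neutrophil markers were higher too, summing to 51.8, 82.9 and 38.6 CPM in vehicle and 2300, 1983 and 1060 CPM in DNFB ears, and so were all 6 macrophage and monocyte markers, at 893 to 1001 and 2670 to 3951 CPM. DNFB ear 3 was the lowest of the DNFB ears in all 3 measures. It was also lowest in the T cell and endothelial marker sums and in 69.0% of all higher genes, so this order is not particular to these cells. The part of neutrophils, macrophages and monocytes in the rise of Cyp4f18 was not tested.

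Cyp4f16 measured 9.37 ± 0.234 CPM in vehicle and 18.5 ± 0.284 CPM in DNFB ears, 1.97-fold higher with little spread (0.98 ± 0.10, adjusted p = 0.000454). The other described genes in its run of 7 Cyp4f members did not pass: Cyp4f17 was at −0.41 ± 0.18 (adjusted p = 0.0876), Cyp4f37 at −0.15 ± 0.44 (0.788) and Cyp4f13 at −0.04 ± 0.12 (0.809). Cyp4b1, an extrahepatic P450 of lung and skin, measured 36.3, 26.7 and 25.8 CPM in vehicle ears and 17.3, 19.6 and 37.3 CPM in DNFB ears. DNFB ear 3 was the highest of all 6, the groups overlapped, and the gene did not pass (−0.26 ± 0.30, adjusted p = 0.498), while without that ear it was at −0.68 (0.00888). Cyp4v3, a fatty acid hydroxylase, was at 0.28 ± 0.28 (0.431), and at 0.55 (0.00518) without the same ear. Cyp4x1 did not pass either, at 0.25 ± 0.21 (0.340).

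**Figure D3:**
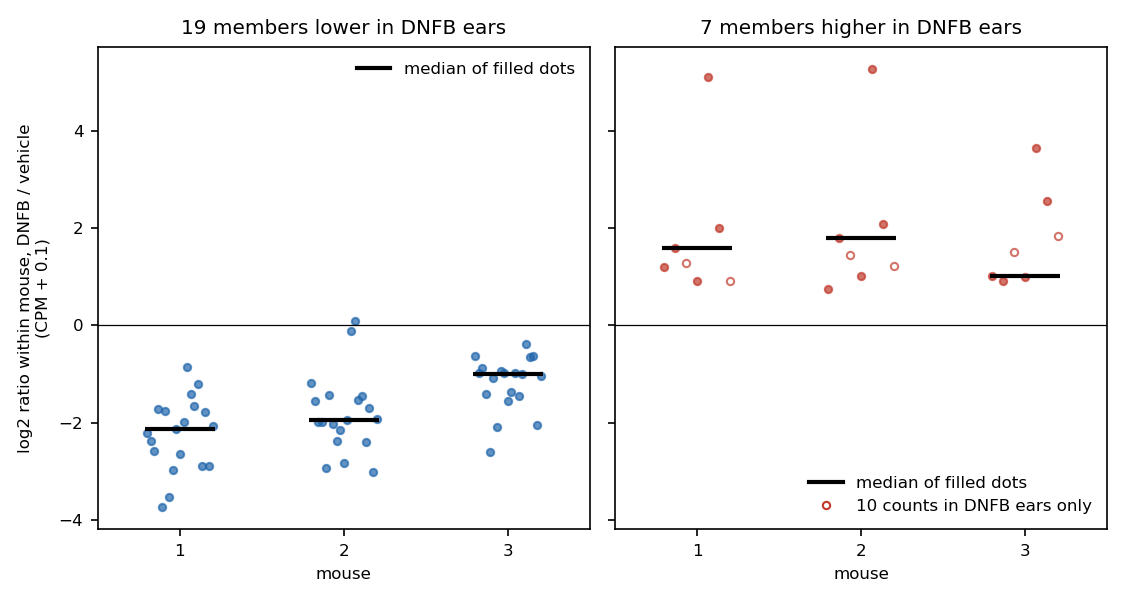
Log2 ratio of DNFB to vehicle CPM within each mouse, 1 dot per member, for the lower and the higher members, hollow where 10 counts were reached in DNFB ears only, with the median of the filled dots as a bar. The lower members have medians of −2.14, −1.95 and −0.99 in mice 1, 2 and 3, and the 5 filled higher members of 1.59, 1.80 and 1.02.

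Within mice, 18 of the 19 lower members were lower in all 3 animals, Cyp2w1 being the exception, and all 7 higher members were higher in all 3. These members were called on the same libraries, so their agreement in direction was largely fixed beforehand. The lower members had median log2 ratios of −2.14, −1.95 and −0.99 in mice 1, 2 and 3, where all lower genes had −0.98, −0.92 and −0.66. The drop was thus shallowest in mouse 3. Its DNFB ear held the highest level of the DNFB ears in 16 of the 19, 84.2% against 66.4% of all lower genes. The 5 higher members that reached 10 counts in both groups had medians of 1.59, 1.80 and 1.02, where all higher genes had 1.11, 1.11 and 0.75. Of these 5, 3 were lowest in DNFB ear 3, as were 69.0% of all higher genes.

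Of 5 tested sterol-oxidising members 2 were higher, 1 lower and 2 did not pass (median 0.16). Over all genes 25.9% were higher and 25.4% lower. The higher pair includes Cyp8b1, kept by its DNFB counts only. Cyp7b1, the oxysterol 7-alpha-hydroxylase, measured 6.74, 6.41 and 5.24 CPM in vehicle ears and 27.1, 27.5 and 31.3 CPM in DNFB ears. Each DNFB ear was well above each vehicle ear, 4.66-fold on average (2.22 ± 0.14, adjusted p = 8.01e-05), and the ear of mouse 3 was the highest. Cyp39a1, which acts on 24-hydroxycholesterol, measured 29.3, 32.6 and 24.6 CPM against 9.27, 11.2 and 12.3 CPM and was 2.64-fold lower (−1.40 ± 0.16, adjusted p = 0.000582). Cyp46a1, which makes that sterol, was at −0.90 ± 0.33 and just missed the threshold (adjusted p = 0.0525), and passed with upper-quartile scaling (0.0402), limma-voom (0.0445), a filter of 1 CPM in 3 libraries (0.0497) or no DNFB ear of mouse 3 (0.0104). Cyp27a1, the sterol 27-hydroxylase, did not pass (0.16 ± 0.22, adjusted p = 0.577).

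Cyp8b1, the bile acid 12-alpha-hydroxylase of liver, rose from 0.400, 0.414 and 0.288 CPM to 0.842, 1.10 and 1.29 CPM (1.54 ± 0.32, adjusted p = 0.00661), at a level of a few counts per library in vehicle ears.

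Cyp7b1 acts downstream of Ch25h, the cholesterol 25-hydroxylase, in making 7-alpha,25-dihydroxycholesterol, the ligand that draws immune cells through the receptor Gpr183. The 7 listed oxysterol partners go beyond this route, with Osbp, Sult2b1, Nceh1 and Soat1 among them. Of the 7, 4 were higher, 0 lower and 3 did not pass (median 0.38), beside 25.9% higher and 25.4% lower over all genes. Ch25h averaged 1.14 ± 0.235 CPM in vehicle and 47.9 ± 9.08 CPM in DNFB ears, 41.6-fold higher (5.38 ± 0.22, adjusted p = 1.76e-05). Gpr183 averaged 9.11 ± 1.28 and 21.4 ± 4.84 CPM (1.23 ± 0.19, adjusted p = 0.00209). Nceh1, which frees cholesterol from its esters, averaged 19.4 ± 2.91 and 48.9 ± 13.8 CPM (1.33 ± 0.23, adjusted p = 0.00308). Hsd3b7, which degrades the ligand, was 1.30-fold higher (0.38 ± 0.10, adjusted p = 0.0160), a call lost without vehicle ear 1, vehicle ear 2 or DNFB ear 1. Soat1, which esterifies cholesterol, did not pass (−0.20 ± 0.13, adjusted p = 0.231).

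Vitamin D enzymes were scarce. Cyp27b1, which makes the active hormone, rose from 0.350, 0.362 and 0.385 CPM to 0.991, 1.15 and 1.29 CPM, with no overlap (1.63 ± 0.28, adjusted p = 0.00305). Cyp2r1, the 25-hydroxylase, did not pass (−0.01 ± 0.27, adjusted p = 0.989). Cyp24a1, which inactivates the hormone and is the classic target of its receptor, held 0, 2 and 2 estimated counts in vehicle ears and 0, 2 and 436 in DNFB ears 1, 2 and 3. A single ear, at 21.6 CPM, thus held nearly all its reads, and the gene was removed by the filter on low counts (adjusted p = 0.0650 with no filter). The receptor Vdr was 1.33-fold higher (0.41 ± 0.11, adjusted p = 0.0177), but at 0.0583 with animals blocked and at 0.0643, 0.0652 and 0.0668 without vehicle ear 1, vehicle ear 2 and DNFB ear 2.

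The retinoic acid-degrading enzymes did not pass. Cyp26b1, with the highest TPM (a unit scaled for library total and gene length) of all members in DNFB ears, measured 285, 268 and 359.6 CPM in vehicle and 236, 247 and 279 CPM in DNFB ears. These groups overlapped (−0.26 ± 0.14, adjusted p = 0.165). Cyp26a1 measured 17.2, 13.6 and 15.1 CPM against 5.004, 3.85 and 13.0 CPM, with mouse 3 again close to its vehicle ear (−1.08 ± 0.42, adjusted p = 0.0677). It passed with animals blocked (−1.25, adjusted p = 0.0340), with DESeq2 (0.0267), with limma-voom (0.0267) and without DNFB ear 3 (−1.79, adjusted p = 7.26e-05). Its promoter is shown because retinoic acid receptors are known to bind direct repeats of the kind found there, in capitals: the half-site AGTTCA, repeated with 5 bases between, on the strand opposite to the gene, 32 to 16 bases before the start.
Cyp26a1, chr19:37697558-37697807, plus strand, build GRCm38.p6, RefSeq: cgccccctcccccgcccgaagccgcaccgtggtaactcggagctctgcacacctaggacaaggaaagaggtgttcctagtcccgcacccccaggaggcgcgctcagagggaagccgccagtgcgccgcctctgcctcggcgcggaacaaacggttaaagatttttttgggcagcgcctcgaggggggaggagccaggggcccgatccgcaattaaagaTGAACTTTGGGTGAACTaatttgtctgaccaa
This repeat, searched on both strands, stands in 7 of the 32851 windows (0.0213%) and in 1 of 35 described members with an entry. The half-site searched was that of Cyp26a1 itself, so its match was fixed beforehand. The share holds for this exact repeat, not for receptor sites in general.

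Among the enzymes that make retinoic acid and the proteins that carry it, 5 of 11 partners were higher, 2 lower and 4 did not pass (median 0.07). The shares over all genes were 25.9% higher and 25.4% lower. Crabp1, a retinoic acid-binding protein, averaged 19.6 ± 2.55 CPM in vehicle and 123 ± 68.9 CPM in DNFB ears (2.65 ± 0.48, adjusted p = 0.00364). The retinal dehydrogenase Aldh1a2 averaged 1.11 ± 0.263 and 5.72 ± 1.77 CPM (2.36 ± 0.30, adjusted p = 0.000931), and its relative Aldh1a3 5.65 ± 0.871 and 22.0 ± 2.09 CPM (1.96 ± 0.16, adjusted p = 0.000175). Rdh10, which makes retinal from retinol, averaged 18.5 ± 1.24 and 59.4 ± 18.3 CPM (1.68 ± 0.23, adjusted p = 0.00129). The lower pair, named after their values were seen, were the third retinal dehydrogenase Aldh1a1 (−1.61 ± 0.29, adjusted p = 0.00351) and the retinal reductase Dhrs3 (−0.60 ± 0.09, adjusted p = 0.00201). Crabp2 did not pass (−0.41 ± 0.25, adjusted p = 0.202), except without DNFB ear 3 (−0.69, adjusted p = 0.0109).

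**Figure D4:**
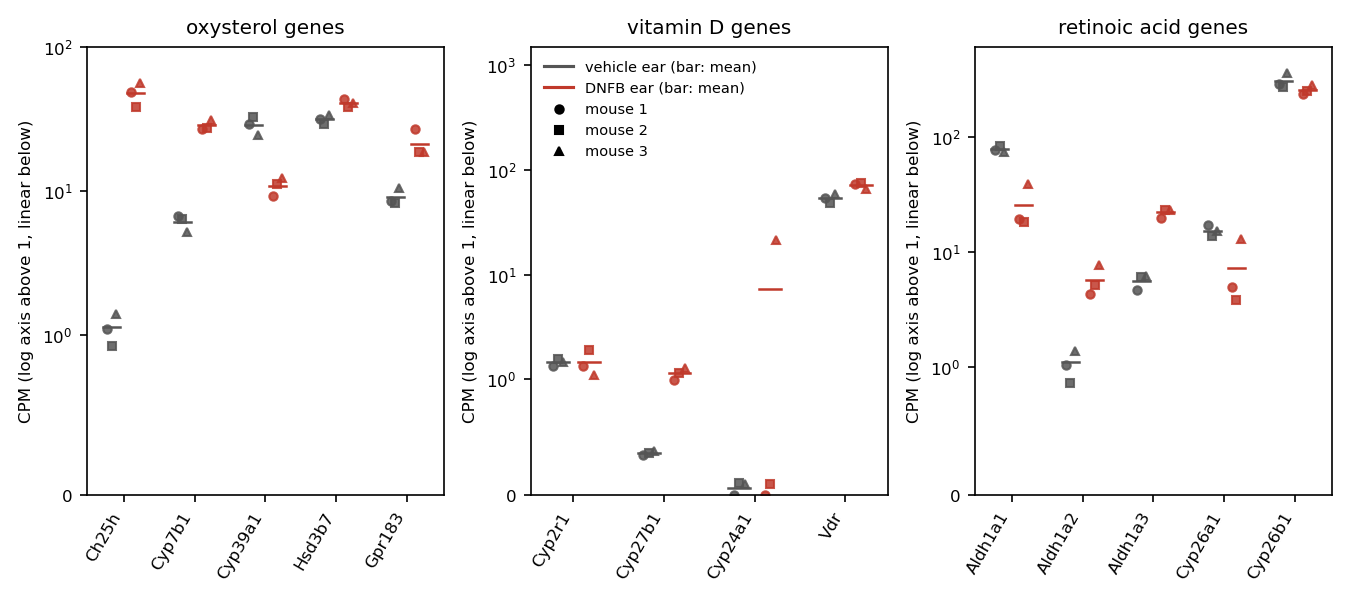
CPM in each ear (axis logarithmic above 1 and linear below) for oxysterol, vitamin D and retinoic acid genes, vehicle and DNFB ears in separate colours, the marker shape giving the mouse and the short bar the mean of 3 ears. Ch25h and Cyp7b1 lie higher in every DNFB ear, Cyp24a1 stands out in DNFB ear 3 alone at 21.6 CPM, and Cyp26a1 in that ear, at 13.0 CPM, lies near the vehicle ears.

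Both steroid-making members passed, in opposite directions. Cyp11a1, the mitochondrial enzyme that cuts the side chain of cholesterol, averaged 10.4 ± 1.45 CPM in vehicle and 20.7 ± 3.61 CPM in DNFB ears (1.00 ± 0.17, adjusted p = 0.00301). Cyp17a1, the 17-hydroxylase that follows it, measured 14.6, 14.9 and 12.5 CPM against 3.07, 6.45 and 8.06 CPM (−1.26 ± 0.32, adjusted p = 0.0139), with an adjusted p of 0.0506 without vehicle ear 2. Neither gene's groups overlapped. Cyp11a1 forms a run with Cyp1a1, which was lower. Cyp20a1, a P450 with no settled substrate, was near level at 23.6, 24.6 and 23.6 CPM in vehicle and 29.9, 27.8 and 24.0 CPM in DNFB ears (0.19 ± 0.11, adjusted p = 0.197), and at 0.27 (0.0406) without DNFB ear 3.

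**Figure D5:**
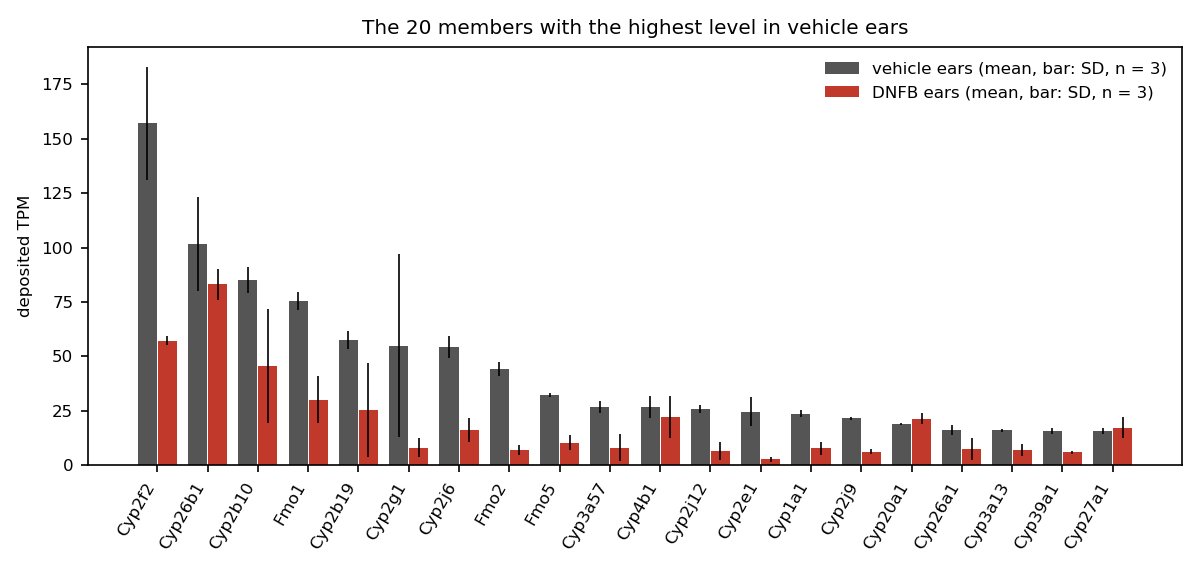
Deposited TPM (linear axis from 0) of the members with the highest level in vehicle ears, as the mean of 3 ears per group with its SD. Cyp2f2 leads in vehicle ears at 157 TPM, and Cyp26b1 leads in DNFB ears at 83.1 TPM.

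On the per-length scale the described members together summed to 1125, 1013 and 972 TPM in the vehicle ears of mice 1, 2 and 3 and to 564, 621 and 697 TPM in their DNFB ears. The groups did not overlap. In vehicle ears the highest levels were Cyp2f2 at 157 ± 25.9 TPM, Cyp26b1 at 102 ± 21.6 TPM, Cyp2b10 at 85.2 ± 6.04 TPM and Fmo1 at 75.5 ± 4.29 TPM. Mean ± SD of Cyp2f2 stood clear of that of Cyp26b1, while Cyp26b1 and Cyp2b10, and Cyp2b10 and Fmo1, overlapped. In DNFB ears the order was Cyp26b1 at 83.1 ± 7.03 TPM, Cyp4f18 at 67.3 ± 31.6 TPM, Cyp2f2 at 57.2 ± 2.14 TPM, Cyp2b10 at 45.7 ± 26.1 TPM and Cyp1b1 at 39.5 ± 8.49 TPM. The spread of Cyp4f18 spans its neighbours on both sides. Cyp4f18 moved from rank 33 to rank 2, Cyp1b1 from 23 to 5 and Cyp7b1 from 31 to 8.

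Of 10 redox partners, which pass electrons to P450 enzymes or assist them, 2 were higher, 5 lower and 3 did not pass (median −0.32), beside 25.9% higher and 25.4% lower over all genes. Por, the reductase that serves the microsomal P450 enzymes, was higher at 205 ± 18.9 against 128 ± 9.85 CPM (0.67 ± 0.11, adjusted p = 0.00257). The haem-binding partners Pgrmc2 and Pgrmc1 were lower at −0.91 ± 0.15 (0.00272) and −0.80 ± 0.14 (0.00344), as was the electron donor Cyb5a at −0.79 ± 0.17 (0.00770). The ferredoxins Fdx1 (−0.23 ± 0.14, adjusted p = 0.194) and Fdx2 (0.02 ± 0.12, adjusted p = 0.894) did not pass, Fdx1 reaching 0.0262 without DNFB ear 3.

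Of 12 haem genes 5 were higher, 3 lower and 4 did not pass (median 0.18), beside 25.9% higher and 25.4% lower over all genes. Hmox1, the inducible haem oxygenase that breaks haem down, averaged 115 ± 9.01 CPM in vehicle and 938 ± 39.8 CPM in DNFB ears, 8.15-fold higher (3.03 ± 0.12, adjusted p = 1.49e-05). Alas1, the first enzyme of haem synthesis, was 1.59-fold higher (0.67 ± 0.10, adjusted p = 0.00144), and Alad, the next enzyme, was 1.79-fold lower (−0.84 ± 0.18, adjusted p = 0.00792). Hmox2, the constitutive haem oxygenase, did not pass (0.18 ± 0.11, adjusted p = 0.225).

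Of the 15 listed nuclear receptors that sense lipids and foreign compounds, 11 were tested, with 3 higher, 4 lower and 4 not passing (median −0.02). Over all genes 25.9% were higher and 25.4% lower. The fatty acid receptors Ppara (−1.60 ± 0.33, adjusted p = 0.00624) and Pparg (−1.36 ± 0.20, adjusted p = 0.00157) were lower, while Ppard was higher (0.83 ± 0.11, adjusted p = 0.00100). The retinoic acid receptor Rara was higher, at 79.5 ± 3.55 against 29.3 ± 5.01 CPM (1.44 ± 0.13, adjusted p = 0.000312).

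Among other drug-metabolising enzymes in 2 lists the lower genes outnumbered the higher ones, where over all genes 25.4% were lower and 25.9% higher. Of 11 other oxidases and reductases 2 were higher, 6 lower and 3 did not pass (median −0.60). The aldo-keto reductase Akr1b8 was 4.39-fold higher (2.14 ± 0.11, adjusted p = 4.20e-05) and the purine-oxidising Xdh 2.60-fold higher (1.38 ± 0.14, adjusted p = 0.000363), while Cbr2, a carbonyl reductase, did not pass (0.23 ± 0.12, adjusted p = 0.129). Of 17 tested conjugating enzymes 3 were higher, 8 lower and 6 did not pass (median −0.53). The N-methyltransferase Inmt was 7.93-fold lower (−2.99 ± 0.26, adjusted p = 0.000259) and the sulfotransferase Sult1a1 3.09-fold lower (−1.63 ± 0.21, adjusted p = 0.000966). The glutathione transferases Gsta4 and Gsta3 moved apart, at 2.59 ± 0.22 (0.000217) and −2.18 ± 0.52 (0.0113), the latter at −3.15 without DNFB ear 3.

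Of the 40 members below 10 mean counts in both groups, 33 had some count and 7 had none in any library: Cyp19a1, Cyp2a22, Cyp2c70, Cyp2d11, Cyp2d12, Cyp3a25 and Cyp4a31. None was tested. The highest was Cyp21a1, at a mean of 6.34 estimated counts in vehicle and 6.42 in DNFB ears, and just above the limit lay Fmo4 with 10.3 in vehicle ears. Among the other genes were Cyp11b1, Cyp26c1, Cyp2a4, Cyp2b13, Cyp2b9, Cyp2c23, Cyp2c55, Cyp2c65, Cyp2c66, Cyp2c68, Cyp2c69, Cyp2d10, Cyp2d26, Cyp2d9, Cyp2j11, Cyp2j13, Cyp2j5, Cyp2t4, Cyp3a11, Cyp3a16, Cyp3a59, Cyp4a10, Cyp4a14, Cyp4a29, Cyp4a30b, Cyp4a32, Cyp4f14, Cyp4f15, Cyp4f40, Cyp7a1 and Fmo6. Members typical of liver, such as Cyp7a1, which opens bile acid synthesis, and the Cyp2c, Cyp3a11 and Cyp4a genes were among them.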

How the data were processed

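Per the labels' protocols, oligo(dT)-captured RNA was read on DNBSeq as 50-base single ends. HISAT and GRCm39 are named in the submitters' processing notes, while for the read counter, annotation and strand setting the sources used here give nothing. Per the file headers the authors made estimated counts (deposited as read counts, many with decimals), TPM and FPKM per gene. Estimated counts were rounded here for testing. The deposited TPM served for levels between genes, and the deposited FPKM values were not used.

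Vehicle and DNFB ears were compared in R 4.3.3 with edgeR 4.0.16 (TMM, filterByExpr, quasi-likelihood test, two-sided, Benjamini-Hochberg over 15317 genes, threshold 0.05, no block). CPM use TMM factors, and the SE is the absolute log2 fold change over the square root of F. Within-mouse ratios add 0.1 CPM. On simulated counts, over 15231 genes, the test called 100 of 100 genes changed 4-fold, 89 of 100 changed 2-fold and 12 of 15031 unchanged ones. The spread between ears in that simulation is not stated here, so these rates do not measure power or error for the members. In the real ears 16 members lower by at least 2-fold passed. Cyp2b19 and Cyp26a1, lower by 2.25-fold and 2.11-fold in DNFB ears, did not.

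Mouse numbers in the titles tie both ears of an animal; the same-mouse correlations of deviations from group means were −0.0751, −0.176 and −0.0874. Alternatives were the mouse block, other scalings and filters, DESeq2 1.42.0, limma-voom (limma 3.58.1), and leaving out each library or mouse. Members and lists were chosen with earlier results of these data known. Every described member is named, with values in every library for those past the threshold by 2-fold or more and for the 5 not passing with the highest TPM. Each list gave at most 4 genes of large change that passed and at most 2 abundant genes that did not. The text names part of these, and some listed genes are not reported here. Promoters are RefSeq's, with 35 of 45 described members matched. With 3 ears per group and no block, the test sets the group difference against the spread between ears within groups. It treats both ears of a mouse as independent. No genome of the files' build was used.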

Additional observations from a re-analysis of the deposited data

How the results depend on the processing

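Outside leave-outs, every count stayed within 1.5 times its value: genes past the threshold numbered 6601 to 8053 (7862 as reported), members 25 to 29 (26), higher members 5 to 7 (7), lower members 18 to 22 (19) and partner genes 57 to 62 (60). The replicate block gave 6601 genes, 25 members, 7 higher and 18 lower members and 57 partner genes; beside the calls given above it lost Cyb5r1 and Urod and changed no other call named here. Leaving out single libraries or whole mice gave 2594 to 9108 genes, 16 to 34 members, 5 to 10 higher, 11 to 24 lower and 22 to 69 partner genes, the lowest without mouse 2 and with 2 ears per group. Of 42 tested members, 21 changed call in at least 1 of 16 alternatives, 7 of them outside leave-outs. The other 21 kept their call in each alternative that gave a value, and 16 of these also kept their sign; Cyp2a5, Cyp2ab1, Cyp2r1, Cyp4f13 and Cyp4f37, which never passed, did not. No called value reversed; 39 members had a value in every alternative. Without mouse 2, Cyp1a1, Cyp2b23, Cyp2j12, Cyp3a13, Cyp8b1, Cyp27b1 and Fmo1 missed the threshold (adjusted p 0.0671, 0.0695, 0.113, 0.123, 0.0782, 0.0607 and 0.0857). So did Cyp17a1, Cyp2g1 and Cyp3a57 (0.127, 0.0903 and 0.204). Without mouse 1, Cyp3a13, Cyp2g1, Cyp3a57, Cyp2s1 and Cyp2w1 missed it (0.0639, 0.0788, 0.0541, 0.186 and 0.219), and without mouse 3, Cyp2s1 and Cyp2w1 (0.0938 and 0.158). Without DNFB ear 3, Cyp27a1 passed at 0.37 (adjusted p 0.0476), and without DNFB ear 2, Cyp4f17 at −0.57 (0.0483). The carbonyl reductase Cbr3 reversed, from 0.16 to −0.41 without DNFB ear 3 and to −0.42 without mouse 3, over leave-outs from −0.42 to 0.42; the cause was not tested. At 19556754 to 20336945 estimated counts per library, the filter on low counts removed Cyp2u1, Fmo4 and Cyp24a1. Cyp24a1 had 436 estimated counts in DNFB ear 3 and 0 to 2 in each other ear.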

Other observations

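Cyp24a1 was looked at again after its values were seen. Genes with at least 50 estimated counts in 1 library and at least 20-fold above each of the other libraries were counted as a description: the DNFB ear of mouse 3 had 1, Cyp24a1. The DNFB ear of mouse 2 had 3 (Apoa1, Prap1 and Apoa4), the DNFB ear of mouse 1 had 1 (H4bc24), the vehicle ears of mice 1 and 3 had 1 each (Ccl21b and Dcpp1), and that of mouse 2 had 0.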
